A study of Mus musculus with 8 samples.

Results

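Untreated EpH4-AS spheroids were compared with untreated EpH4 spheroids across all expressed genes. EpH4 is a mouse mammary epithelial cell line with the genotype WT in the labels, and EpH4-AS cells are labelled AS-transformed and described as malignant mammary epithelial cells. Both were grown as spheroids, rounded aggregates of cells in 3-dimensional culture, and received no agent in the groups compared. The comparison uses 4 of the 8 libraries of the series, 2 of each line. The other 4 libraries are of the same lines after PM2.5, fine airborne particulate matter. They enter the model to estimate the spread, and their own line difference is given where it differs. The labels name no clone, no passage and no agent of transformation. Whether both libraries of a line were separately grown is not stated, so the spread behind each p-value may be technical only.

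Mammary epithelial cells are held together by E-cadherin junctions and desmosomes, carry keratin filaments, and rest on a basement membrane of laminin, collagen IV, nidogen and perlecan. In an epithelial-mesenchymal transition the transcription factors of the Snail, Zeb and Twist families repress junction genes, and vimentin, N-cadherin and fibronectin take their place. Malignant transformation commonly touches the p53 and RB pathways, the cell division cycle, energy metabolism and growth factor signalling, and each of these was examined here.

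The lines differed in most of what they expressed. Of 25413 genes, 13716 passed a filter on low counts and were tested, and 12238 of them (89.2%) had an adjusted p under 0.05 by edgeR's quasi-likelihood test with Benjamini-Hochberg adjustment. EpH4-AS was higher for 5976 genes (43.6%) and lower for 6262 (45.7%). Because so large a share passed, gene groups are described by calls that also changed over 2-fold, which 7566 genes (55.2%) did. Of these, 3308 (24.1%) were higher and 4258 (31%) lower in EpH4-AS. Each list count below is to be set against these shares of all tested genes. On the authors' RPKM values the same split was 2867 higher and 2161 lower by limma, so that higher calls made up 57.0% there against 43.7% on counts. The median log2 difference over all tested genes was -0.05 on counts, and the RPKM values moved it up by 0.19. With a pseudocount of 1, which compresses low genes, several of the list counts given below moved over 1.5 times on RPKM. Those higher became 4 junction genes, 2 luminal genes and 2 hypoxia and glycolysis genes. Those lower became 7 collagens, 5 fibroblast markers, 1 leukocyte marker, 4 EGF family genes, 3 Hox genes, and no laminin or tricarboxylic acid cycle gene. Epithelial regulators then had 1 higher and 3 lower, FGF genes 1 and 4, and interferon-stimulated genes 3 and 6. The 2 libraries of a line agreed closely, with a correlation of log2 levels across genes of at least 0.997 and a biological coefficient of variation of 4.67%. Levels are in CPM (each library's counts scaled to its TMM-adjusted total), differences are log2 EpH4-AS minus EpH4 with the standard error (SE), and the 2 values of a line are its libraries 1 and 2. In bulk RNA, fewer cells of a type and less RNA per cell cannot be told apart.

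Whole classes of transcript moved with the line, and these values stand beside every result that follows. Total counts were 27765982 and 25687434 in the EpH4 libraries and 16356285 and 15393256 in EpH4-AS. Reads in genes but outside exons made up 11.8 ± 0.706% in EpH4 and 3.47 ± 0.107% in EpH4-AS (SD, n = 2). Of 492 tested genes annotated only as transcribed regions to be checked, 445 (90.4%) were over 2-fold lower in EpH4-AS, with a median of -4.23. Among 371 Zfp genes, which encode zinc finger proteins, 203 were over 2-fold lower and 38 higher. Of 30 tested retrotransposed gene copies, 26 were over 2-fold higher and 2 lower. One of them, Rpl35rt, stood at 127 and 136 CPM in EpH4 and 742 and 720.3 CPM in EpH4-AS, while its parent gene Rpl35 had a mean of 414 and 32.3 CPM. Reads of such copies, of ribosomal protein genes and of mitochondrial genes may be shared with near-identical sequences elsewhere, so their values are uncertain. Protein-coding genes split by the share of the transcript that is coding had medians rising from -0.51 in the lowest quintile to 0.50 in the highest. How the reads of a line align to the mouse genome and how the line expresses its genes cannot be told apart in counts. Whether EpH4-AS cells match the reference sequence as closely as EpH4 cells do, in strain or in origin, was not tested. A gene at or near 0 in 1 line is thus not shown to be silent there. The part of these classes in the results on single genes was not tested. An offset for coding share was applied, but it was fitted to these same log2 differences and removes their trend with coding share by construction. The offset therefore cannot tell what part of that trend is technical. Its values are given where it moved a count of a list described below by 1.5 times or more. Smaller moves are not given, so the other counts may differ by a few genes under it.

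**Figure D1:**
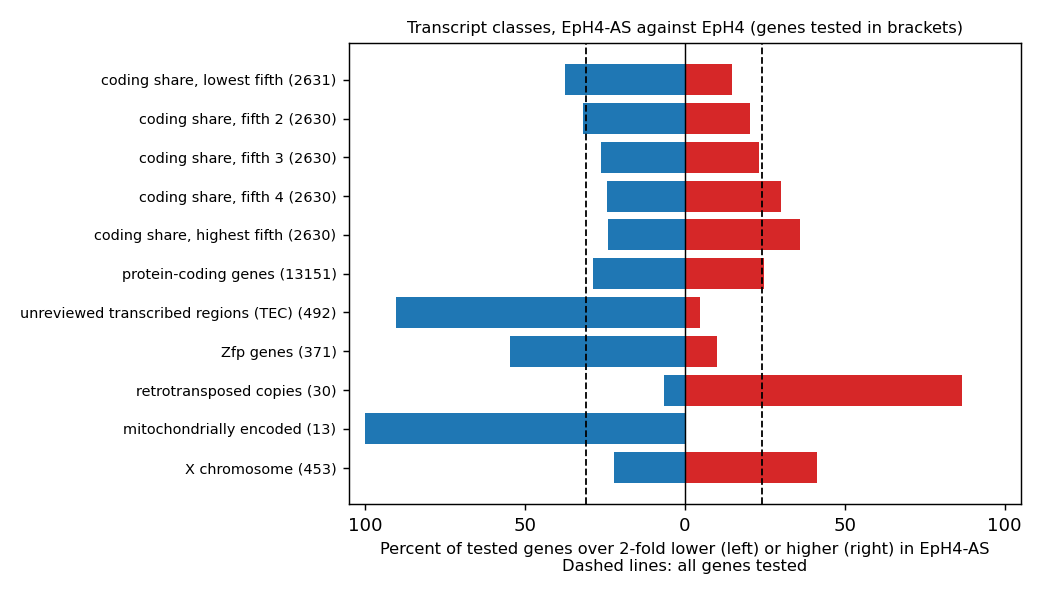
Share of the tested genes of each transcript class that were over 2-fold lower (bars to the left) or higher (bars to the right) in untreated EpH4-AS than in untreated EpH4, in percent, with 2 libraries a line. The dashed lines mark all tested genes, 31% lower and 24.1% higher, and transcribed regions to be checked (TEC, 90.4% lower) and retrotransposed copies lie far outside them on opposite sides.

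The transcripts that define an epithelium were at or near 0 in both lines. E-cadherin (Cdh1, chromosome 8, 107329983 to 107396878 on GRCm39) was at 0.109 and 0.159 CPM in EpH4 and 0 and 0.0632 CPM in EpH4-AS, and keratin 8 (Krt8) did not pass 0.239 CPM in any of the 4 libraries. Keratin 18 (Krt18), the partner of keratin 8, had 0 counts in all 4. Epcam, an epithelial adhesion molecule, had 0 counts in EpH4 and 0.783 and 0.253 CPM in EpH4-AS, at least 9.20-fold higher (adjusted p = 5.53e-04) but close to the detection limit. Of 34 junction and polarity genes 16 were below the filter, and 7 of those had no count in any of the 4 libraries. Of 13 keratins 11 were below the filter, and 2 were tested. Of these, 1 was over 2-fold higher in EpH4-AS, at a log2 difference of 6.075, and 1 lower, at -5.555. The 13 keratins together summed to 4.04 and 3.86 CPM in EpH4 and 1.57 and 2.34 CPM in EpH4-AS. Keratin 14 (Krt14), a basal keratin, was at 3.31 and 3.02 CPM in EpH4 and 0.0602 and 0.0632 CPM in EpH4-AS. The label of a mammary epithelial cell is thus not matched by E-cadherin or the simple epithelial keratins in the libraries of either line. None of 12 endothelial markers passed the filter.

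What remained of the junction genes was divided between the lines. Of 18 tested members, 9 (50%) were over 2-fold higher and 6 (33.3%) lower in EpH4-AS, with a median of 1.65. The shares over all tested genes were 24.1% and 31%. Desmosome parts made up several of the rises. Desmoplakin (Dsp), which anchors keratin filaments to desmosomes, was at 0.364 and 0.278 CPM in EpH4 and 37.7 and 36.9 CPM in EpH4-AS, a log2 difference of 6.83 ± 0.18 (SE; adjusted p = 5.11e-14). Plakophilin 3 (Pkp3) went from 0.436 and 0.318 to 16.9 and 17.9 CPM and plakoglobin (Jup) from 2.0 and 1.87 to 21.6 and 20.5 CPM. Matriptase (St14), a membrane protease of epithelia, stood at 0.145 and 0.0398 CPM in EpH4 and 6.44 and 5.31 CPM in EpH4-AS. Other junction genes ran the opposite way. The tight junction adhesion molecule F11r was at 75.4 and 75 CPM in EpH4 and 2.17 and 1.71 CPM in EpH4-AS, a difference of -5.27 ± 0.10 (SE; adjusted p = 2.24e-15). Plakophilin 2 (Pkp2) fell from 21.7 and 23.9 to 2.17 and 2.34 CPM, the polarity gene Llgl2 from 17 and 17.4 to 0.783 and 0.696 CPM, and the desmosome protein Perp from 41.8 and 42.8 to 1.75 and 1.71 CPM. No junction gene named here had overlapping lines. Of 10 tested epithelial transcription and splicing regulators 2 (20%) were over 2-fold higher and 6 (60%) lower, with a median of -2.11. The shares over all tested genes were again 24.1% and 31%. Gata3, a regulator of the luminal mammary lineage, was at 58.3 and 53.2 CPM in EpH4 and 13.1 and 13.2 CPM in EpH4-AS and fell by 2.08 on the log2 scale. Klf5 stood at 58.1 and 60.2 CPM in EpH4 and 12 and 15 CPM in EpH4-AS, and Ovol1, a repressor of mesenchymal genes, at 6.36 and 6.36 CPM in EpH4 and 0.181 and 0.190 CPM in EpH4-AS. Grhl1, among the higher members, rose from a mean of 3.26 CPM in EpH4 to 11.4 CPM in EpH4-AS (log2 1.80 ± 0.16).

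Transcription factors of the epithelial-mesenchymal transition were present in both lines, in different proportions. Zeb1 was at 62.7 and 62.1 CPM in EpH4 and 169 and 166 CPM in EpH4-AS (log2 1.42 ± 0.05), Twist1 at 33 and 29.8 CPM in EpH4 and 93.4 and 95.8 CPM in EpH4-AS (log2 1.59 ± 0.07) and Snai2 at 6.76 and 7.16 CPM in EpH4 and 21.7 and 20.2 CPM in EpH4-AS (log2 1.59 ± 0.11), all higher in EpH4-AS without overlap. Twist2 followed them, at 7.31 and 5.89 CPM in EpH4 and 29.1 and 29.2 CPM in EpH4-AS. Snai1 ran the opposite way at 30.4 and 32.1 CPM in EpH4 and 8.49 and 7.84 CPM in EpH4-AS, a difference of -1.93 ± 0.10 (SE; adjusted p = 6.60e-11), and Zeb2 was 158 and 162 CPM in EpH4 and 105 and 104 CPM in EpH4-AS (log2 -0.61 ± 0.05). Of the 8 tested factors 4 were over 2-fold higher and 1 lower. Their usual structural partners did not follow one direction, with 6 of 17 over 2-fold higher and 9 lower. Vimentin (Vim), the mesenchymal intermediate filament, was abundant in both lines at 2048 and 2089 CPM in EpH4 and 3507 and 3799.9 CPM in EpH4-AS (log2 0.82 ± 0.08, adjusted p = 2.45e-07), under 2-fold apart. N-cadherin (Cdh2, chromosome 18, 16721934 to 16942303) fell from 145 and 146 to 4.70 and 5.38 CPM, a difference of -4.86 ± 0.09 (SE; adjusted p = 9.65e-16). Fibronectin (Fn1) fell from 12084 and 11991 to 3345 and 3187 CPM, and osteopontin (Spp1), a secreted matrix phosphoprotein, from 4962 and 3944 to 91.2 and 92.1 CPM. Tenascin C (Tnc) went from 26.3 and 21.7 to 0.301 and 0.443 CPM. Transgelin (Tagln), a smooth muscle actin-binding protein, rose from 0.763 and 0.557 to 14.9 and 14.9 CPM, and the myosin light chain Myl9 had 0 counts in EpH4 and 7.10 and 6.45 CPM in EpH4-AS, at least 119-fold higher.

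**Figure D2:**
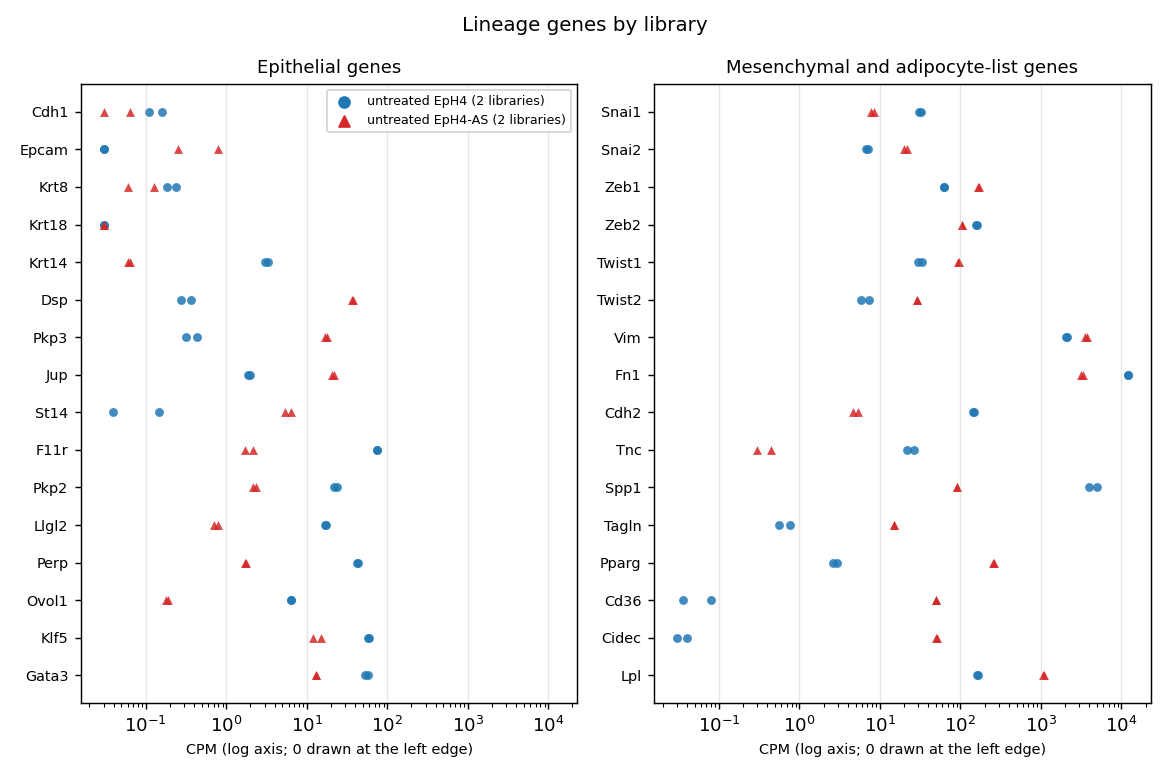
Level of epithelial genes (left) and of mesenchymal and adipocyte-list genes (right) in each untreated library, in CPM on a log axis, with 1 point a library and libraries at 0 drawn at the left edge. Cdh1, Krt8 and Krt18 lie at or near 0 in both lines, Dsp and Pparg are far higher in EpH4-AS, and F11r, Cdh2 and Spp1 are far higher in EpH4.

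Genes used as markers of mammary and stromal lineages were likewise rearranged. Of 14 tested luminal and hormone genes 4 were over 2-fold higher and 7 lower, against 24.1% and 31% of all tested genes, and with the offset for coding share 6 were higher and 7 lower. Lipocalin 2 (Lcn2), a secreted iron-siderophore carrier, was at 1957 and 1685 CPM in EpH4 and 17 and 20.9 CPM in EpH4-AS, and Cd24a, a surface marker used to sort mammary epithelium, at 78.9 and 82 CPM in EpH4 and 1.38 and 0.949 CPM in EpH4-AS. Cd14 stood at 64.1 and 53.5 CPM in EpH4 and 0.963 and 1.14 CPM in EpH4-AS. Cited1, a transcriptional cofactor of luminal cells, had a single count in EpH4 and was at 26.8 and 24.5 CPM in EpH4-AS, a ratio of 1351 with an exact 95% counting interval of 242 to 53432. The oestrogen receptor Esr1 was 7.60 and 7.0 CPM in EpH4 and 12 and 12 CPM in EpH4-AS (log2 0.72 ± 0.12), under 2-fold apart. Of 11 tested basal genes 3 (27.3%) were over 2-fold higher and 6 (54.5%) lower, against the same 24.1% and 31%. The integrin chain Itga6 fell from 54.6 and 51.4 to 2.71 and 1.90 CPM, the stem cell marker Procr from 13.8 and 13.3 to 0.482 and 0.569 CPM and the myosin kinase Mylk from 26 and 21.3 to 0.963 and 0.759 CPM.

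Fat storage genes of the adipocyte list were higher in EpH4-AS. Of 7 tested members 6 were over 2-fold higher (24.1% of all tested genes) and none lower (31%), with a median of 4.27. A wider list of fatty acid synthesis and storage genes split evenly, with 7 of 24 tested members over 2-fold higher and 7 lower. Pparg, the nuclear receptor that governs fat storage, was at 2.91 and 2.62 CPM in EpH4 and 259 and 253 CPM in EpH4-AS, a difference of 6.53 ± 0.10 (SE; adjusted p = 2.26e-16). The fatty acid transporter Cd36 was at 0.0364 and 0.0795 CPM in EpH4 and 49.6 and 50.2 CPM in EpH4-AS, a ratio of 876 with an exact 95% counting interval of 299 to 4252. Lipoprotein lipase (Lpl) rose from 167 and 163 to 1098 and 1064 CPM, the lipid droplet protein Cidec from 0 and 0.0398 to 49.2 and 51.3 CPM and the fatty acid binding protein Fabp4 from 1.05 and 0.517 to 16.9 and 13.9 CPM. The defining adipocyte hormones were not there. Adipoq had 0 and 0 CPM in EpH4 and 0.0602 and 0 CPM in EpH4-AS, and Lep and Cfd had 0 counts in all 4 libraries. Of 16 tested fibroblast markers 6 were over 2-fold higher (37.5%) and 8 lower (50%), against 24.1% and 31% of all tested genes. The 4 tested leukocyte markers were all over 2-fold lower in EpH4-AS, but 9 of the 12 listed were under 1 CPM in both lines. The marker Cd68 held most of the list's level, at a mean of 172 CPM in EpH4 and 38.3 CPM in EpH4-AS. The whole list summed to 178 and 177 CPM in the EpH4 libraries.

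**Figure D3:**
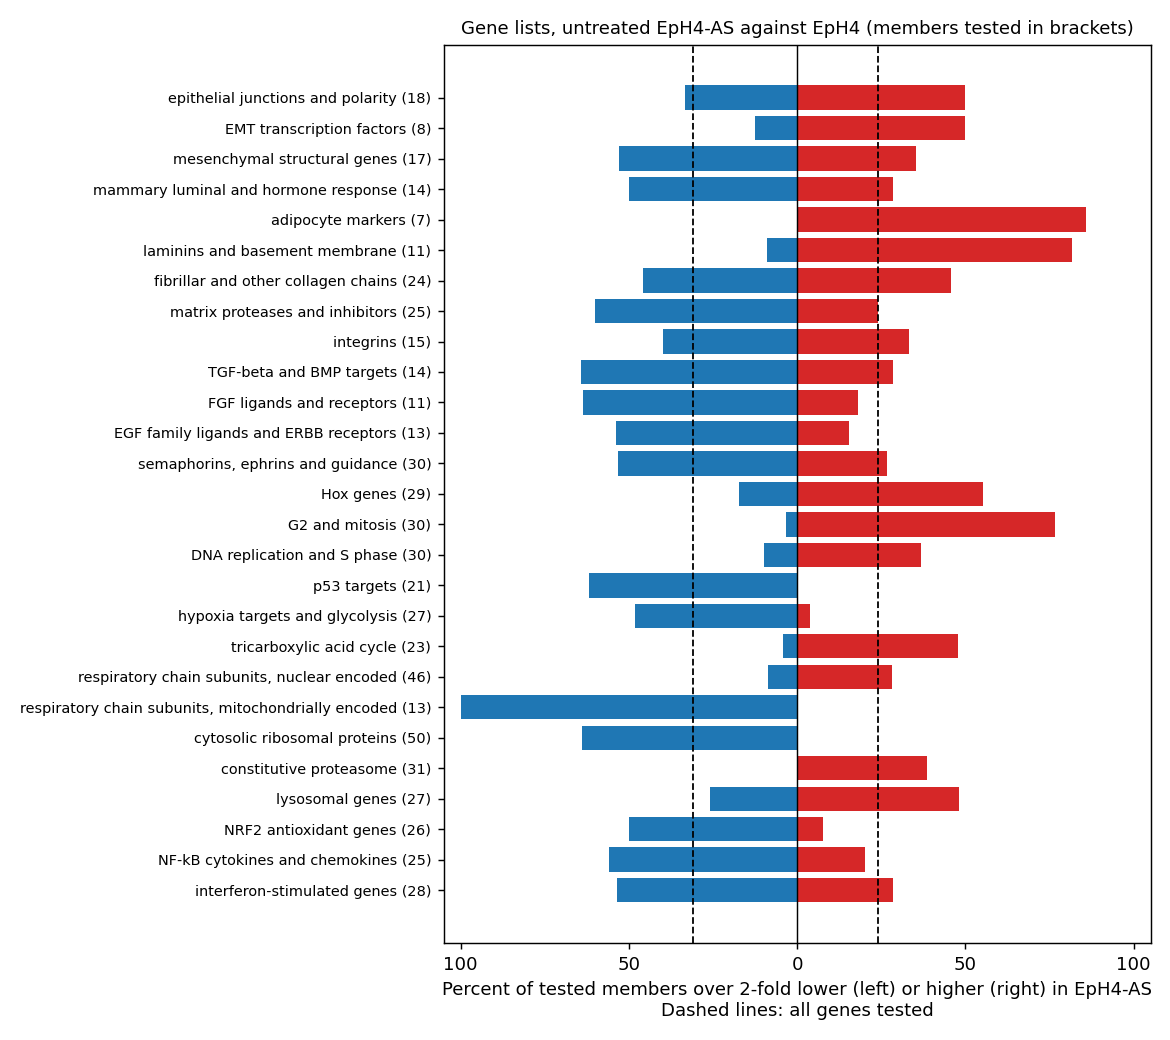
Share of the tested members of the gene lists drawn that were over 2-fold lower (bars to the left) or higher (bars to the right) in untreated EpH4-AS than in untreated EpH4, in percent, with the number tested in brackets. Dashed lines mark the shares over all tested genes, 31% and 24.1%. Among the lists drawn, the longest bars to the right are adipocyte markers, laminins, and genes of G2 and mitosis, and the longest to the left is the mitochondrially encoded set.

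The basement membrane differed in its laminins and its collagens in opposite ways. Of 11 tested laminin and basement membrane genes 9 were over 2-fold higher in EpH4-AS and 1 lower, with a median of 1.51. Laminin alpha 2 (Lama2, chromosome 10, 26856032 to 27495754), the chain of muscle and nerve basement membranes, had 3 counts in EpH4 and was at 428 and 415 CPM in EpH4-AS. The ratio was 7398 with an exact 95% counting interval of 2531 to 35880.1. Laminin alpha 5 (Lama5) was at 105 and 103 CPM in EpH4 and 1842 and 1789.6 CPM in EpH4-AS, a difference of 4.13 ± 0.06 (SE; adjusted p = 3.56e-16), and laminin alpha 3 (Lama3) at 1.16 and 1.27 CPM in EpH4 and 49.1 and 54.9 CPM in EpH4-AS. The beta chain Lamb1 rose from 396 and 355 to 1438 and 1420.0 CPM and perlecan (Hspg2) from 585 and 566 to 1666 and 1620.0 CPM. With the offset for coding share 7 of these genes were over 2-fold higher and 2 lower.

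Collagen chains split evenly, 11 higher and 11 lower of 24 tested. Both chains of the common collagen IV trimer fell, Col4a1 from 616 and 609 to 30.1 and 36.9 CPM and Col4a2 from 366 and 339 to 14 and 17.6 CPM. Col4a6 fell from 295 and 239 to 3.73 and 5.19 CPM. Of the collagen I chains, Col1a2 fell from 1128 and 1006 to 32.3 and 36.6 CPM. Collagen III (Col3a1) rose from 0.982 and 0.517 to 45.3 and 45 CPM and Col27a1 from 0.909 and 0.795 to 53.2 and 55.9 CPM. Among 25 tested proteases and inhibitors 6 were over 2-fold higher and 15 lower, with a median of -2.35. The inhibitor Timp3 was at 42.1 and 32.6 CPM in EpH4 and 0.903 and 1.39 CPM in EpH4-AS, the metalloprotease Adam8 at 82.5 and 85.9 CPM in EpH4 and 2.71 and 3.73 CPM in EpH4-AS, and the aggrecanase Adamts5 at 26.3 and 21.7 CPM in EpH4 and 0.602 and 0.696 CPM in EpH4-AS. Gelatinase A (Mmp2) went from 8.54 and 6.68 to 0 and 0.0632 CPM. Macrophage elastase (Mmp12) had 0 counts in EpH4 and 37.6 and 38.8 CPM in EpH4-AS, at least 670.2-fold higher. Of 15 tested integrins 5 (33.3%) were over 2-fold higher and 6 (40%) lower, not far from the 24.1% and 31% of all tested genes. The leukocyte integrin chain Itgb2 fell from 20.9 and 20.8 to 0 and 0.190 CPM and Itgb3 from 11.3 and 7.79 to 0.0602 and 0.190 CPM, whereas Itga1, a collagen receptor chain, rose from 1.13 and 1.31 to 8.49 and 9.80 CPM. Itgb4, which binds laminin in hemidesmosomes, was at 14.3 and 12.9 CPM in EpH4 and 38.5 and 39.9 CPM in EpH4-AS (log2 1.52 ± 0.07).

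EGF family, FGF and guidance genes were mostly lower in EpH4-AS, beside a few that had 0 counts in EpH4. Lists of other growth factor genes were not mostly lower. Of 23 tested genes of other growth factors and receptors 3 were over 2-fold higher and 10 lower. TGF-beta and BMP ligands, receptors and antagonists had 6 higher and 12 lower of 25, and those of the Wnt family 8 and 8 of 22. On RPKM the lower counts of these last 2 lists became 7 and 4. Of 13 tested EGF family genes 7 were over 2-fold lower and 2 higher, or 8 and 3 with the offset for coding share. The receptor Egfr was at 23.4 and 22.3 CPM in EpH4 and 0.361 and 0.885 CPM in EpH4-AS, a difference of -5.20 ± 0.22 (SE; adjusted p = 7.18e-12). Its ligands Hbegf, Ereg and Areg fell from 121 and 154, 83 and 91.4 and 82.5 and 87.2 CPM to 13.8 and 16.4, 7.77 and 8.03 and 18.7 and 17.6 CPM in that order. Nrg2 and Nrg3, neuregulin ligands of ERBB receptors, had 0 counts in EpH4 and stood at 15.5 and 13 and 6.38 and 5.44 CPM in EpH4-AS, at least 251-fold and 104-fold higher. Of 11 tested FGF genes 7 were over 2-fold lower and 2 higher. Fgf1 fell from 13.9 and 12.3 to 0.241 and 0.316 CPM and Fgf7 from 5.93 and 5.61 to 0.421 and 0.190 CPM, and the receptor Fgfr1 from 219 and 240.1 to 83.1 and 75 CPM. Fgf13, an intracellular member, had 0 counts in EpH4 and 8.55 and 7.78 CPM in EpH4-AS, at least 143-fold higher.

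Of 14 tested targets of TGF-beta and BMP signalling 9 were over 2-fold lower and 4 higher, with a median of -2.25. Pmepa1, which dampens TGF-beta signalling, was at 24.2 and 18.3 CPM in EpH4 and 0.181 and 0.316 CPM in EpH4-AS, and the elastic fibre protein Ltbp2 at 138 and 107 CPM in EpH4 and 3.49 and 4.81 CPM in EpH4-AS. Ccn2, also a YAP target, rose from 1.53 and 1.43 to 20.2 and 17.3 CPM. The decoy receptor Bambi had 0 counts in EpH4 and 5.06 and 5.0 CPM in EpH4-AS, at least 88.2-fold higher. Hras and Nras, which encode RAS proteins, were under 2-fold apart: Hras was 33.1 and 27 CPM in EpH4 and 43.7 and 43.4 CPM in EpH4-AS (log2 0.53 ± 0.08) and Nras 127 and 126 CPM in EpH4 and 96.3 and 94.8 CPM in EpH4-AS (log2 -0.40 ± 0.05). Nras changed sign, to 0.32, with the offset for coding share. Of 24 tested RAS and MAPK feedback genes 2 were over 2-fold higher and 6 lower, against 24.1% and 31% of all tested genes, and with the offset 5 were higher and 7 lower. Spry1 and Spred2, inhibitors of RAS to ERK signalling, fell from 44.1 and 40.9 to 8.73 and 7.72 CPM and from 115 and 112 to 21.6 and 23 CPM. Egr1, an immediate early transcription factor induced by ERK, was at 0.545 and 0.477 CPM in EpH4 and 292 and 304 CPM in EpH4-AS, a difference of 9.17 ± 0.10 (SE; adjusted p = 4.60e-17). Of 30 tested guidance genes 8 were over 2-fold higher and 16 lower. Slit2, a guidance ligand, fell from 71.9 and 70.5 to 1.02 and 1.58 CPM, while its receptors Robo1 and Robo2 rose from 0.109 and 0 to 55.7 and 50.3 CPM and from 0 and 0.159 to 27.5 and 28.1 CPM. Sema3e rose from 2.0 and 2.23 to 211 and 212 CPM.

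Genes of G2 and mitosis were higher in EpH4-AS and p53 targets lower. Of 30 tested mitotic genes 23 were over 2-fold higher (24.1% of all tested genes) and 1 lower, with a median of 1.87. The kinase Plk1, which drives mitotic entry and spindle assembly, was at 8.54 and 4.61 CPM in EpH4 and 82.4 and 83.5 CPM in EpH4-AS, a difference of 3.64 ± 0.15 (SE; adjusted p = 6.54e-12). The kinetochore protein Cenpf was at 11.5 and 6.84 CPM in EpH4 and 111 and 101 CPM in EpH4-AS, the microtubule-depolymerising kinesin Kif2c (chromosome 4, 117016836 to 117039836) at 5.20 and 3.02 CPM in EpH4 and 47.9 and 43.7 CPM in EpH4-AS, and cyclin B2 (Ccnb2, chromosome 9, 70314974 to 70328829) at 8.47 and 4.93 CPM in EpH4 and 55.3 and 59.6 CPM in EpH4-AS. Kif20a and Prc1, both needed for cell cleavage, rose from 9.09 and 4.85 to 73.3 and 68.4 CPM and from 24.4 and 13.2 to 159 and 161 CPM. EpH4 library 1 was above EpH4 library 2 for each of these 6 genes, and both EpH4-AS libraries were above both. The list was not uniform. Mki67, the proliferation marker Ki-67, was at 92.7 and 62.4 CPM in EpH4 and 82.5 and 79.1 CPM in EpH4-AS, overlapping between the lines (log2 0.06 ± 0.12, adjusted p = 0.666). Its difference was 0.37 without EpH4 library 1, -0.19 without EpH4 library 2 and -0.47 with the offset for coding share. There was 1 lower member, the centromeric histone Cenpa, at 6.18 and 4.49 CPM in EpH4 and 0.662 and 0.822 CPM in EpH4-AS. In the PM2.5-exposed libraries the difference was smaller, at 2.5 for Plk1 and 1.61 for Cenpf. S phase genes moved less, 11 of 30 over 2-fold higher and 3 lower, with a median of 0.66. Thymidylate synthase (Tyms) rose from 17.7 and 11.1 to 102 and 102 CPM and DNA polymerase alpha (Pola1) from 36.5 and 28.6 to 164 and 162 CPM. Cdt1, which licenses replication origins, fell from 107 and 97.2 to 20.2 and 18.6 CPM.

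Promoters of mitotic genes often hold a cell cycle homology region, read here as TTTGAA or TTCGAA on either strand. Of the 26 list members with a RefSeq promoter window, 11 (42.3%) held it in the 250 bases before the start, against 17.4% of all 27025 windows and 12.7% of the 10200 windows of tested genes. Ccnb2 and Kif2c, both higher in EpH4-AS, are shown as examples, with the match in capitals. The window of Ccnb2 is chr9:70421555-70421804 on the minus strand, with its match 167 bases before the start. That of Kif2c is chr4:117178773-117179022 on the minus strand, with its match 103 bases before the start (RefSeq, GRCm38.p6). A match describes these letters and is not a site known to be bound.
Ccnb2: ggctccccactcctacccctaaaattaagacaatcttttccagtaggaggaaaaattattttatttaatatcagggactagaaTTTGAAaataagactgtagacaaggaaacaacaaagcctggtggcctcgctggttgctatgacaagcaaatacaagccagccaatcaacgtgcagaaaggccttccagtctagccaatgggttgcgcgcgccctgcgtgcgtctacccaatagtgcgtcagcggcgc
Kif2c: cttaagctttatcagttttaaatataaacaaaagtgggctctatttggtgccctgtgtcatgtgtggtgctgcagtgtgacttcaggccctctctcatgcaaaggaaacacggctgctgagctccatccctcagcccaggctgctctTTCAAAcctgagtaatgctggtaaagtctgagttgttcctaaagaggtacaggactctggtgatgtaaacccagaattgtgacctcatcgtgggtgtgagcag

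None of 21 tested p53 targets was over 2-fold higher, and 13 were over 2-fold lower (31% of all tested genes), with a median of -1.82. The gene of p53 itself, Trp53 (chromosome 11, 69471185 to 69482699), fell from 98.4 and 100.5 CPM in EpH4 to 10.8 and 12.3 CPM in EpH4-AS, a difference of -3.11 ± 0.07 (SE; adjusted p = 1.23e-14). The cyclin-dependent kinase inhibitor p21 (Cdkn1a) was at 560.5 and 584 CPM in EpH4 and 52.7 and 58 CPM in EpH4-AS, a difference of -3.37 ± 0.08 (SE; adjusted p = 1.33e-14). The death receptors Tnfrsf10b and Eda2r fell from 70.4 and 75.6 to 3.73 and 3.92 CPM and from 46.5 and 51 to 1.87 and 2.09 CPM. The ribonucleotide reductase subunit Rrm2b was at 79.6 and 94.6 CPM in EpH4 and 5.78 and 8.54 CPM in EpH4-AS, and the exonuclease Aen at 82 and 91.5 CPM in EpH4 and 10.8 and 11 CPM in EpH4-AS. In each of these genes both EpH4-AS libraries lay below both EpH4 libraries. Cdkn2a, which encodes the p16 and p19 tumour suppressors, had 0 counts in EpH4 and 1.63 and 1.71 CPM in EpH4-AS, at least 29.2-fold higher (adjusted p = 9.30e-07). With the offset for coding share 15 p53 targets were over 2-fold lower and 1 higher. The median coding share of the p53 targets was 31.9% and that of the mitotic genes 67.3%, and with that offset 22 mitotic genes were over 2-fold higher and 2 lower.

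**Figure D4:**
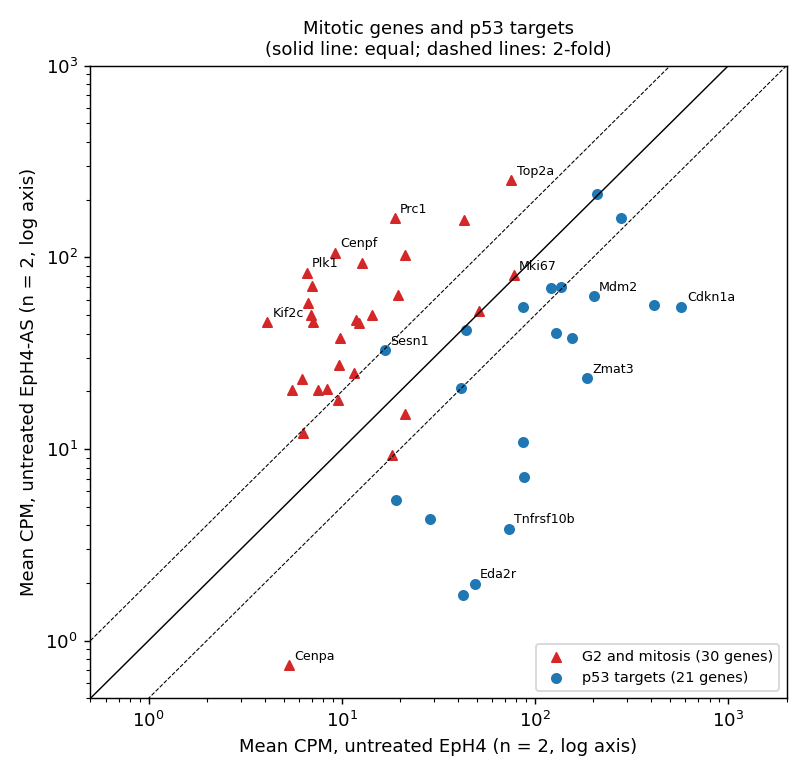
Mean level in untreated EpH4-AS against untreated EpH4 (CPM, log axes, n = 2 libraries a line) of the 30 tested genes of G2 and mitosis (triangles) and the 21 tested p53 targets (circles). The solid line marks equal levels and the dashed lines 2-fold, with 23 triangles above the upper dashed line and 13 circles below the lower one.

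Many genes of a mixed list of hypoxia targets and glycolysis, and all mitochondrially encoded transcripts, were lower in EpH4-AS. Tricarboxylic acid cycle transcripts were more often higher than lower. Glycolytic enzymes were not counted apart from the hypoxia targets. Of 27 tested hypoxia targets and glycolytic genes 13 were over 2-fold lower and 1 higher, with a median of -1.0. Lactate dehydrogenase A (Ldha), which makes lactate from pyruvate, was at 2408 and 2465 CPM in EpH4 and 229.8 and 234 CPM in EpH4-AS, a difference of -3.39 ± 0.06 (SE; adjusted p = 1.73e-15). Carbonic anhydrase 9 (Car9) was at 276 and 313 CPM in EpH4 and 10.7 and 10.8 CPM in EpH4-AS, the oxygen-sensing hydroxylase Egln3 at 499 and 485 CPM in EpH4 and 15.2 and 17.3 CPM in EpH4-AS, and Ndrg1 at 2453 and 2679.8 CPM in EpH4 and 175 and 183 CPM in EpH4-AS. The platelet phosphofructokinase Pfkp fell from 279.8 and 313 to 37.4 and 39.9 CPM. Pfkfb3, whose product activates phosphofructokinase, was the exception at 26.5 and 29 CPM in EpH4 and 219.8 and 219 CPM in EpH4-AS. No library of one line reached the other in these 6 genes. Of 23 tested genes of the tricarboxylic acid cycle 11 were over 2-fold higher and 1 lower, with a median of 0.93. Succinate dehydrogenase A (Sdha) rose from 168 and 169 to 641 and 623 CPM, fumarase (Fh1) from 49.8 and 46.3 to 173 and 169.7 CPM, and isocitrate dehydrogenase subunit Idh3a from 57.1 and 50.8 to 226 and 220.0 CPM. The offset for coding share left 8 of these genes over 2-fold higher and 3 lower.

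The 13 mitochondrially encoded genes were all over 2-fold lower, with a median of -3.87, and took 2.47 ± 0.364% of counts in EpH4 and 0.233 ± 0.0193% in EpH4-AS (SD, n = 2). Of 46 tested nuclear genes of the respiratory chain 13 were over 2-fold higher (24.1% of all tested genes) and 4 lower (31%), with a median of 0.30. Ppargc1a, a coactivator of mitochondrial biogenesis, was at 12.7 and 10.2 CPM in EpH4 and had 0 counts in EpH4-AS, at least 124-fold lower.

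The hypoxia response core, ACGTG or GCGTG on either strand, was held by 20 of the 27 hypoxia and glycolysis genes with a RefSeq promoter window (74.1%), against 38.6% of all windows and 56.2% of those of tested genes. It was also held by 17 of the 26 windows of the G2 and mitosis list (65.4%), so it was not particular to the hypoxia list. Here too, a match describes letters and is not a site known to be bound. The windows of Ldha and Car9, of which the first serves glycolysis and the second acid balance, show many matches and a single one. Capitals mark the matches, which overlap in places because the strands are read separately. The Ldha window is chr7:46845554-46845803 on the plus strand, with matches 145, 144, 48, 47 and 34 bases before the start. That of Car9 is chr4:43506776-43507025 on the plus strand, with 1 match 18 bases before the start (GRCm38.p6).
Ldha: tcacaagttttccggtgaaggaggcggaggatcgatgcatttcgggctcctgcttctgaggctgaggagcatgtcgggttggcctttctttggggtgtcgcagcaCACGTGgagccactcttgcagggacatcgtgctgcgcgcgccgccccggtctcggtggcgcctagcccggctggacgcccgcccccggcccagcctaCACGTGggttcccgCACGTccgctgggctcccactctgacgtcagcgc
Car9: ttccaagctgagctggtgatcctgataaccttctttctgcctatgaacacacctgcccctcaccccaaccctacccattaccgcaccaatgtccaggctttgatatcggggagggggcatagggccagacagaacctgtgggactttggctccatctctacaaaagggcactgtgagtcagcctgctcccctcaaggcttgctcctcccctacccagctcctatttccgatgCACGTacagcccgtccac

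Ribosomal protein genes were lower, and proteasome genes more often higher than lower, in EpH4-AS. Of 50 tested cytosolic ribosomal protein genes 32 were over 2-fold lower and none higher, with a median of -1.32, and their reads may be shared with copies. Of 31 proteasome genes 12 (38.7%) were over 2-fold higher and none lower, against 24.1% and 31% of all tested genes, with a median of 0.80. The regulatory ATPase Psmc4 rose from 83.7 and 79.2 to 477 and 475 CPM, the core subunit Psmb7 from 69.1 and 62.7 to 203 and 203 CPM and Psma7 from 139 and 140.4 to 411 and 412 CPM. With the offset for coding share 8 of the 31 proteasome genes were over 2-fold higher, with a median of 0.60. Under the same offset 3522 of the 13716 tested genes were over 2-fold higher, a share close to that of the proteasome genes. Of 27 lysosomal genes 13 (48.1%) were over 2-fold higher and 7 (25.9%) lower, with a median of 0.77. The shares over all tested genes were 24.1% and 31%. The summed level of the whole list was lower in EpH4-AS, at 7797 and 7703 CPM against 9259 and 9090 CPM in EpH4. The genes named next are all among the higher members. The hexosaminidase chain Hexa had 3 counts in EpH4 and was at 238 and 235 CPM in EpH4-AS, a ratio of 4152 with an exact 95% counting interval of 1420.0 to 20136. The protective protein Ctsa, or cathepsin A, was at 111 and 113 CPM in EpH4 and 713 and 730.1 CPM in EpH4-AS. Cathepsin F (Ctsf) had 0 counts in EpH4 and 134 and 139 CPM in EpH4-AS, at least 2396-fold higher.

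Antioxidant genes under NRF2 control were lower, 13 of 26 over 2-fold lower and 2 higher, with a median of -0.98. The quinone reductase Nqo1 was at 83.1 and 60.3 CPM in EpH4 and 5.78 and 6.64 CPM in EpH4-AS, the aldehyde dehydrogenase Aldh3a1 at 108 and 54.2 CPM in EpH4 and 1.26 and 1.83 CPM in EpH4-AS, and the cystine transporter Slc7a11 at 91.1 and 103 CPM in EpH4 and 14.2 and 16.9 CPM in EpH4-AS. The ferritin light chain (Ftl1), which stores iron, fell from 3343 and 3365 to 85.6 and 98 CPM, a difference of -5.19 ± 0.08 (SE; adjusted p = 5.76e-16). Ferritin genes have many processed copies, so the Ftl1 value is uncertain.

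Cytokine, prostaglandin and interferon-stimulated genes were lower in larger number than higher. Of 25 tested NF-kB cytokine and chemokine genes 14 were over 2-fold lower and 5 higher, with a median of -2.76. Interleukin 6 (Il6) was at 7.92 and 6.01 CPM in EpH4 and 0.361 and 0.379 CPM in EpH4-AS, the chemokine Cx3cl1 at 375 and 341 CPM in EpH4 and 20.7 and 21.4 CPM in EpH4-AS, and the adhesion molecule Vcam1 at 56.3 and 43.5 CPM in EpH4 and 1.75 and 2.47 CPM in EpH4-AS. Its counterpart Icam1, which binds leukocyte integrins, ran the opposite way at 0.0364 and 0.119 CPM in EpH4 and 64.8 and 59 CPM in EpH4-AS, a difference of 9.56 ± 0.18 (SE; adjusted p = 1.56e-15). Of 11 tested prostaglandin genes 7 were over 2-fold lower and 2 higher. The cyclooxygenases Ptgs1 and Ptgs2 fell from 80.8 and 59.7 to 1.20 and 1.58 CPM and from 763 and 689.9 to 105 and 109 CPM, and the prostaglandin E synthase Ptges from 46.7 and 51.1 to 1.87 and 2.15 CPM. Of 28 tested interferon-stimulated genes 15 (53.6%) were over 2-fold lower and 8 (28.6%) higher, against 31% and 24.1% of all tested genes. Ifit2 was at 37.3 and 31.2 CPM in EpH4 and 0.963 and 0.822 CPM in EpH4-AS and Trim30a at 17.2 and 17 CPM in EpH4 and 1.81 and 2.40 CPM in EpH4-AS, whereas Mx2 was at 0.182 and 0.239 CPM in EpH4 and 20.9 and 22.2 CPM in EpH4-AS.

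Of 18 tested genes of class I antigen presentation 4 were over 2-fold higher and 5 lower, with a median of 0.06, near the shares of 24.1% and 31% over all tested genes. The shared light chain B2m fell from 2123 and 2017 to 95.7 and 109 CPM, a difference of -4.34 ± 0.08 (SE; adjusted p = 2.54e-15), and the heavy chains H2-D1 and H2-K1 from 1991 and 2023 to 243 and 253 CPM and from 450.5 and 423 to 109 and 98 CPM. Their transactivator Nlrc5 fell from 26.8 and 25.9 to 2.71 and 3.16 CPM. The peptide trimming gene Erap1 and the peptide editing gene Tapbpl rose, Erap1 from 27.6 and 26.8 to 235 and 232 CPM and Tapbpl from 10.1 and 8.19 to 82.9 and 82 CPM. Heavy chain genes are polymorphic and near-identical to each other, so their values are uncertain.

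Hox genes, which record the position of a cell along the body axis, formed a different code in each line. Of 39 genes 29 were tested, and 16 were over 2-fold higher in EpH4-AS and 5 lower, with a median of 1.40. The Hoxd cluster on chromosome 2 had a single count in EpH4, while part of it was well expressed in EpH4-AS. Hoxd8 (74534959 to 74538277) and Hoxd9 had 0 counts in EpH4 and stood at 55.9 and 62 and 45.1 and 43.1 CPM in EpH4-AS, at least 1033-fold and 775-fold higher. Hoxd4, which held that count, was at 31 and 28.2 CPM in EpH4-AS. Hoxd10 to Hoxd13 had 0 counts in all 4 libraries. In the Hoxc cluster on chromosome 15, Hoxc10 rose from 0.945 and 0.716 to 48.8 and 50.3 CPM. Hoxc11 and Hoxc13 of the same cluster fell from 11.9 and 11.9 to 0.361 and 0.126 CPM and from 10.2 and 9.70 to 0.361 and 0.253 CPM. In the Hoxb cluster on chromosome 11, Hoxb7 was at 0.0727 and 0 CPM in EpH4 and 12.2 and 12.6 CPM in EpH4-AS, and Hoxb9 at 67.8 and 66.8 CPM in EpH4 and 1.38 and 1.33 CPM in EpH4-AS, a difference of -5.63 ± 0.11 (SE; adjusted p = 2.91e-15). Genes within the Hoxb cluster, and within the Hoxc cluster, thus differed in direction.

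**Figure D5:**
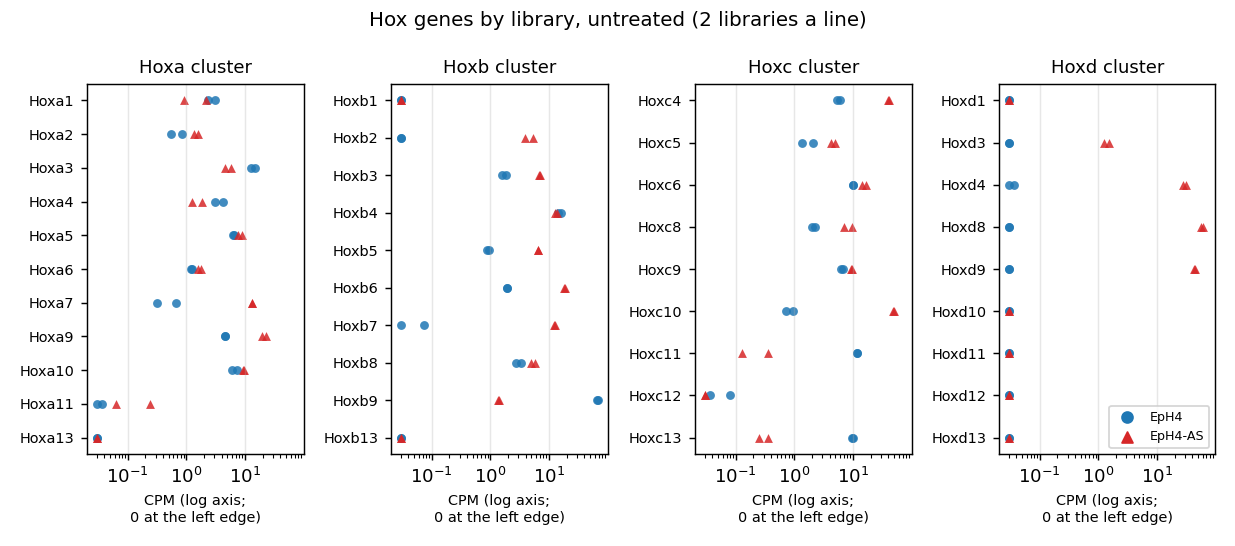
Level of each Hox gene in each untreated library by cluster, in CPM on a log axis, with 1 point a library (circles for EpH4, triangles for EpH4-AS) and libraries at 0 drawn at the left edge. Hoxd4, Hoxd8 and Hoxd9 are high in EpH4-AS and at or near 0 in EpH4, and Hoxb9, Hoxc11 and Hoxc13 are high in EpH4.

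Genes of the sex chromosomes also differed. Of 453 tested X-linked genes 187 were over 2-fold higher in EpH4-AS and 100 lower, with a median of 0.58. The RNA helicase Ddx3x rose from 407 and 427 to 1637 and 1632 CPM and the histone demethylase Kdm5c from 173 and 188 to 783 and 769 CPM. The Y-linked Eif2s3y had 0 counts in EpH4 and 1.26 and 1.20 CPM in EpH4-AS. Of 8 X and Y dosage genes examined, 3 were under 1 CPM in both lines. All Y-linked genes together had only 10 and 14 counts in the EpH4 libraries and 39 and 30 in EpH4-AS. Whether either line carries a Y chromosome was not tested. Xist was not analysed here.

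The largest single differences were in genes detected in 1 line and not, or barely, in the other. There were 147 genes with 0 counts in EpH4 and at least 5 CPM in EpH4-AS, and 16 the other way round. The transporter Slc45a1 (chromosome 4, 150713029 to 150736631) and the lipoprotein receptor Vldlr had 0 counts in EpH4 and stood at 318 and 321 and 273 and 271 CPM in EpH4-AS, at least 5608-fold and 4775-fold higher. The scaffold protein Iqgap2 and the matrix protein Efemp1 had the same pattern, at 139 and 132 and 122 and 117 CPM. The collagen chaperone Fkbp10 had a single count in EpH4 and was at 448 and 432 CPM, and the liver-type glycogen phosphorylase Pygl at 319 and 311 CPM. In EpH4-AS, Mgp, a matrix protein that inhibits calcification, had 0 counts against 158 and 90.2 CPM in EpH4, at least 1356-fold lower. The alarmin Il33 fell from 202 and 159 to 0 and 0.190 CPM, the Wnt antagonist Sfrp2 from 77.2 and 61 to 0.241 and 0.316 CPM, and the potassium channel Kcnj2 from 56.5 and 53.8 to 0.120 and 0.0632 CPM. Aldoart1 and Aldoart2, retrotransposed copies of aldolase, and Eif4a3l2 were also among the 12 largest rises and are uncertain. The rest of the 12 rises were Ctsf, Ubash3b and Tspan7, and of the 12 falls Zfp968, Limch1, Itgb2, Otog, Masp1, Fyb1, Ppp1r14c and Ifi209.

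On the length-scaled level of the authors' RPKM values, the largest gain was in the retrotransposed copy Rpl35rt, whose reads are uncertain, from 244 ± 7.14 in EpH4 to 1557 ± 18 in EpH4-AS (SD, n = 2 here and below). Hspa5, the main chaperone of the endoplasmic reticulum, had an RPKM of 1038 ± 38.1 in EpH4 and 2265 ± 81.1 in EpH4-AS. Hsp90b1 had 826 ± 13.1 and 1986 ± 42, calreticulin (Calr) 659.7 ± 11.4 and 1771 ± 55.2, and the disulfide isomerase P4hb 805 ± 12.3 and 1822 ± 38. Cytoplasmic actin (Actb) stood at 552 ± 30.1 and 1578 ± 16, and the adaptor protein Ywhae at 247 ± 9.44 and 1260.2 ± 1.57. The ribosomal protein gene Rps21, also uncertain, had 971 ± 75.1 and 1942 ± 76.6. On counts, Hspa5, P4hb and Rps21 were under 2-fold apart, at log2 differences of 0.93, 0.98 and 0.80, and the other gains named here were over 2-fold. The library size behind the RPKM values was 1.19 and 1.20 times the count total in EpH4 and 1.08 and 1.08 times in EpH4-AS. Ratios of EpH4-AS to EpH4 thus come out higher on RPKM. Among the 8 largest losses were mt-Co1, at 6397 ± 773 and 589 ± 46.7, and the translation elongation factor Eef1a1, at 5586 ± 53.7 and 1739 ± 1.25. Ferritin heavy chain (Fth1) had 7400.0 ± 541 and 3912 ± 44.8, and Spp1 2236 ± 398 and 52.7 ± 0.921. The 2 libraries of a line lay close to each other beside the gap between the lines for each of these genes.

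The PM2.5-exposed libraries, which share no library with the untreated ones, gave the same direction for nearly all of these genes. Of the 7566 genes over 2-fold apart in untreated cells, 7437 were called in the same direction after exposure, 6863 of them over 2-fold, where 53.9% of tested genes were called over 2-fold. All 4 EpH4-AS libraries lay on 1 side of all 4 EpH4 libraries for 7463 genes. The line difference itself differed with exposure, by the interaction term of the same model, for 974 of the 7566 genes, and 7 were called in the opposite direction.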

How the data were processed

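Polyadenylated RNA of 8 spheroid libraries was sequenced after a stranded library kit, per the labels' protocols, with 1 batch named for all. The count tables deposited by the authors hold raw whole-number reads per gene on GRCm39, the build in the submitters' processing notes. The authors' RPKM values are counts scaled to exon length and library size. The authors' tables per library also give total gene reads, a wider count from which the share outside exons was taken. For the aligner and counter, neither name was given in the sources used here.

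Counts were filtered with filterByExpr, which left 13716 genes with 99.96% of counts, scaled by TMM, and entered into 1 quasi-likelihood model of 4 groups with 2 libraries each (edgeR 4.0.16, R 4.3.3, 4 residual degrees of freedom). Two-sided p-values were adjusted by Benjamini-Hochberg over all tested genes at 0.05. SE is the log2 difference over the square root of F, and the prior count of log2 CPM was 2. A group at 0 was set to 3 counts over the group, and 1 to 3 counts gave a ratio with an exact 95% interval. Intervals and floors cover counting error only. GENCODE annotation of GRCm38 gave gene types and coding shares, and matched 95.9% of tested genes. The analysis was tested on simulated data.

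The comparison, its 69 gene lists and the genes always named were chosen with earlier results of these data known. The rule took the 12 largest rises and falls at 20 CPM or more, the 8 largest RPKM gains and losses, and up to 6 members of a list at 5 CPM or more, and members near 0. Nras, Mki67, Cenpa, Hoxc11, Hoxc13, Pkp2, Jup and any other gene outside it were chosen after their values were seen. Alternatives used DESeq2 1.42.0, limma 3.58.1 on log2(RPKM + 1), other filters and scalings, and fewer libraries. The offset for coding share and the fit to protein-coding genes were chosen after seeing the data. Some named genes are not reported here.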

Additional observations from a re-analysis of the deposited data

Results flagged for a closer look

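The line difference of 37 of the genes named above differed between the untreated and the PM2.5-exposed libraries, by the interaction term of the same edgeR model. Each value is the log2 difference between the lines after exposure minus that in untreated cells, with the adjusted p over all tested genes and 2 libraries a group.

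Mitotic and replication genes, higher in untreated EpH4-AS, had a smaller line difference after exposure. The change was -1.91 for Cenpf (adjusted p = 3.20e-05), -1.56 for Kif2c (adjusted p = 2.70e-04), -1.38 for Prc1 (adjusted p = 8.94e-04), -1.34 for Kif20a (adjusted p = 7.89e-04) and -1.33 for Ccnb2 (adjusted p = 0.0014). It was -1.14 for Plk1 (adjusted p = 0.00273) and -0.63 for Pola1 (adjusted p = 0.00244).

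The matrix and adhesion genes among them had negative values, which were -2.62 for Col3a1 (adjusted p = 2.34e-04), -2.32 for Itgb4 (adjusted p = 1.31e-08), -0.85 for Col4a2 (adjusted p = 0.00173) and -0.83 for Col27a1 (adjusted p = 0.0378). Others were -0.67 for Lama5 (adjusted p = 1.78e-04), -0.39 for Lamb1 (adjusted p = 0.0201), -0.38 for Col4a1 (adjusted p = 0.0419) and -0.32 for Fn1 (adjusted p = 0.0373). Itgb4 was over 2-fold higher in EpH4-AS untreated and lower after exposure, at a log2 difference of -0.80.

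Glycolytic and hypoxia genes had 0.73 for Pfkp (adjusted p = 0.00101), 0.68 for Ndrg1 (adjusted p = 4.69e-04) and 0.31 for Ldha (adjusted p = 0.0241). Chaperones had 0.74 for Hspa5 (adjusted p = 0.00203) and 0.52 for Calr (adjusted p = 0.00231). Among fat storage genes the change was 1.52 for Pparg (adjusted p = 0.001) and -1.56 for Fabp4 (adjusted p = 0.0237). Translation, iron and mitochondrial genes had 0.59 for Eef1a1 (adjusted p = 8.73e-04), 0.51 for Rps21 (adjusted p = 0.00694), 0.38 for Rpl35rt (adjusted p = 0.0104), 0.37 for Ftl1 (adjusted p = 0.0275) and -0.48 for mt-Co1 (adjusted p = 0.0402).

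Lineage and transcription factor genes had 1.40 for Lcn2 (adjusted p = 8.17e-05), -0.96 for Egr1 (adjusted p = 0.0379), -0.60 for Snai1 (adjusted p = 0.0177) and 0.41 for Klf5 (adjusted p = 0.038). Signalling and presentation genes had 0.56 for Ereg (adjusted p = 0.0186), 0.33 for Spred2 (adjusted p = 0.0283), 0.41 for B2m (adjusted p = 0.0204) and 0.37 for H2-D1 (adjusted p = 0.00827). The p53 gene and its target had 0.34 for Trp53 (adjusted p = 0.042) and 0.66 for Eda2r (adjusted p = 0.034).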

How the results depend on the processing

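With 2 libraries a line, the precision rests on 4 libraries and counts near 0 give wide intervals. Every alternative kept the count of calls within 1.5 times of 12238 except the test against a 2-fold change, which called 6845 genes because it asks for more. On log2(RPKM + 1) the genes over 2-fold lower were 2161 in place of 4258, and the cause was not tested. Leaving out each library in turn gave 11892 to 12090 calls, 3292 to 3359 genes over 2-fold higher and 4207 to 4394 lower. A block for the replicate number gave 12151 calls, 3306 higher and 4250 lower. The labels name the libraries 1 and 2 without saying that a number is shared, and same-numbered deviations of the untreated lines correlated at -0.02 (-0.10 to 0.06 over 6 pairs of groups). The block is therefore no evidence of pairing. Library totals, DESeq2, no filter, a stricter filter, the 4 untreated libraries alone, and fits without mitochondrial genes or with thinned EpH4 libraries gave 11439 to 13021 calls. The offset for coding share gave 12193 calls, with 3522 higher and 3933 lower, and protein-coding genes alone 11699, both chosen after seeing the data. For the named genes 2878 of the values under alternatives kept direction and call, and 3 reversed: Mki67 at -0.19 without EpH4 library 2 and -0.47 with the offset, and Nras at 0.32 with the offset. Mki67 passed the threshold without EpH4 library 1, at 0.37, and 10 genes with small differences, Vim and Zeb2 among them, missed it in the test against 2-fold.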
